A study of Mus musculus with 28 samples.

Results

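The livers described here came from 10 male mice of the strain B6.V-Lepob/JRj that received only vehicle, 10 of the 28 mice of the study. They were taken as the samples whose treatment label reads Vehicle, with no use of measured values. These mice carry the *ob* mutation of the leptin gene, so they lack the hormone that restrains feeding and become obese. They arrived at 5 weeks of age, ate the AMLN diet (high in fat, trans fat, fructose, and cholesterol) for 14 weeks, and then received vehicle by mouth once daily for 2 weeks while the diet went on. The other mice differed only in receiving obeticholic acid (OCA) at 30 mg/kg (9 mice) or INT-787 at 30 mg/kg (9 mice), both agonists of the bile acid receptor FXR. All 28 shared the genotype, sex, and diet, and no lean or chow-fed liver was analysed here, so the values describe the diseased liver before any drug and not its distance from a healthy one.

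A liver with steatohepatitis stores fat in its hepatocytes, makes fat from sugar, and carries inflammatory macrophages and scar matrix made by stellate cells. The same hepatocytes fill the blood with albumin, apolipoproteins, clotting factors, and complement, and raise acute phase proteins such as serum amyloid A when cytokines reach them. Hepatocytes also divide their work along the lobule, with urea and glucose synthesis near the portal vein and drug metabolism and glutamine synthesis near the central vein. The question put to these mice was what such a liver transcribes, which genes differ most from mouse to mouse, and which differ together. Whole liver RNA was measured, so fewer cells of a type and less RNA per cell cannot be told apart.

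Polyadenylated RNA of the 10 livers gave between 1009593 and 18342272 counts per mouse, with replicate 6 lowest and the next lowest at 9313260. Of 21935 genes in the table, 12171 had a count in each of the 10 mice and 5331 had none in any of them. Replicate 5 stood apart in a different way. Over 153 pairs of overlapping genes, reads of the silent gene were divided by the reads of its opposite-strand partner expected in the shared stretch. The ratio was 0.581 in replicate 5, against 0.00928 to 0.0165 in the other 27 mice. Pairs were chosen for a low ratio in the drug-treated mice. Only the other vehicle mice, at 0.0105 to 0.0142, are thus an independent comparison. A further difference between libraries followed gene length. For each doubling of gene length, the log2 level relative to the other mice changed by 0.20 in replicate 1 and by -0.29 in replicate 10 (slopes over 5358 genes), while the slopes of the drug-treated mice lay between -0.11 and 0.11. The first principal component held 39.1% of the variance between vehicle mice, and its scores correlated with this length slope (r = 0.98, rho = 0.96, permutation p = 1e-05 for r, the smallest that 100000 resamples can give, n = 10, r = 0.95 without replicates 10 and 1). Without replicates 5 and 6 it held 50.2% and r was 0.99. With the levels offset for gene length and GC content it held 31.5%, and its scores still correlated with the slope (r = 0.87, rho = 0.81, permutation p = 0.00202 for r, n = 10, r = 0.82 without replicates 10 and 1). Both were computed from the same counts. Values without some of these mice are therefore given beside the results that rest on them.

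The labelled tissue matched its markers. All 8 hepatocyte genes checked were present in each mouse, from *Alb* (albumin) to the transcription factor *Hnf4a* at 367 to 514 CPM (counts scaled to a common library size). None of 4 adipocyte or 7 exocrine pancreas genes passed the filter on low counts, and the fat cell hormone gene *Adipoq* was listed at 0 in all 10 mice. Hemoglobin and other red cell genes, a measure of blood in the tissue, took 0.0340% ± 0.0173 of counts (SD, n = 10) and ranged from 0.0210% in replicate 1 to 0.0687% in replicate 2, with replicates 5 and 10 also high at 0.0515% and 0.0541%. Of 7 lymphocyte genes in the table, 2 passed the filter.

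Plasma proteins dominated the transcripts of the vehicle-treated liver. Per transcript length, the 10 most abundant genes were *Alb*, *Apoa2*, *Apoe*, *Scd1*, *Ttr*, *Apoa1*, *Apoa4*, *Hp*, *Apoc1*, and *Fabp1*, and only *Scd1*, the desaturase that makes oleate, and *Fabp1*, which binds fatty acids inside the cell, do not encode secreted proteins. *Alb* reached 86953 ± 10282 TPM (counts per exon length, scaled to a common sum) and took 7.63% ± 1.26 of all counts. *Scd1* stood at 25094 ± 9037 TPM and took the second largest share of counts (4.48% ± 1.40). Ranks 11 to 20 included *Hpx*, *Gc*, *B2m*, *Gstm1*, *Cyp2e1*, *Selenop*, *Mup20*, *C3*, and *Ahsg*, between 11783 and 5457 TPM. They include carriers of heme and vitamin D (*Hpx*, *Gc*) and the central complement protein *C3*.

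A small number of genes held a large share of each library. The 10 genes with most counts took 23.04% ± 1.53 of counts, the top 20 took 28.9% ± 1.72, and the top 100 took 44.4% ± 2.29. These shares moved to 22.9%, 28.7%, and 44.2% without replicates 5 and 6. On the TPM scale, which corrects for length, the top 10 held 30.7% ± 2.45 and the top 100 held 55.4% ± 2.83.

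A list of 105 secreted plasma protein genes took 29.5% ± 3.03 of counts, and 28.997% ± 2.83 without replicates 5 and 6. Its share was lowest in replicate 1 (24.9%) and highest in replicates 5 (34.3%) and 10 (34.6%), the others lying between 27.05% and 30.5%. *Alb* was 50843 CPM in replicate 1 and 112338 CPM in replicate 5, and leaving it out kept the same order at the ends, with 19.1% in replicate 1 and 25.8% in replicate 10. The 13 apolipoprotein genes alone took 8.74% ± 1.21, from 7.18% to 10.6%. Per length the 105 genes held 40.5% ± 3.41, since many plasma protein transcripts are short.

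Genes of lipogenesis were led by a single transcript. The 22 genes took 5.31% ± 1.51 of counts (5.58% ± 1.43 without replicates 5 and 6, and 3.04% ± 0.989 per length), and *Scd1* made up most of it. The share was 2.71% in replicate 10 and 2.95% in replicate 5, and between 4.601% and 7.39% in the other 8 mice. *Scd1* was 23505 CPM in replicate 10, 25134 CPM in replicate 5, and 38749 to 63313 CPM in the others, so these 2 mice did not overlap with the rest. Without *Scd1* the other 21 genes took 0.835% ± 0.114, from 0.631% in replicate 5 to 0.986% in replicate 2. *Fasn*, which joins acetyl units into palmitate, ran from 922 CPM in replicate 4 to 1857 CPM in replicate 7. *Gpam*, the first enzyme of triglyceride assembly, ran from 56.4 CPM in replicate 10 and 94.8 CPM in replicate 5 to 344 CPM in replicate 1, while *Dgat1*, the last enzyme, varied least of the list. Replicates 10 and 5 also had the lowest length slopes of the 10 mice (-0.29 and -0.17), and the part of transcript length in these shares was not tested beyond the values above.

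**Figure D1:**
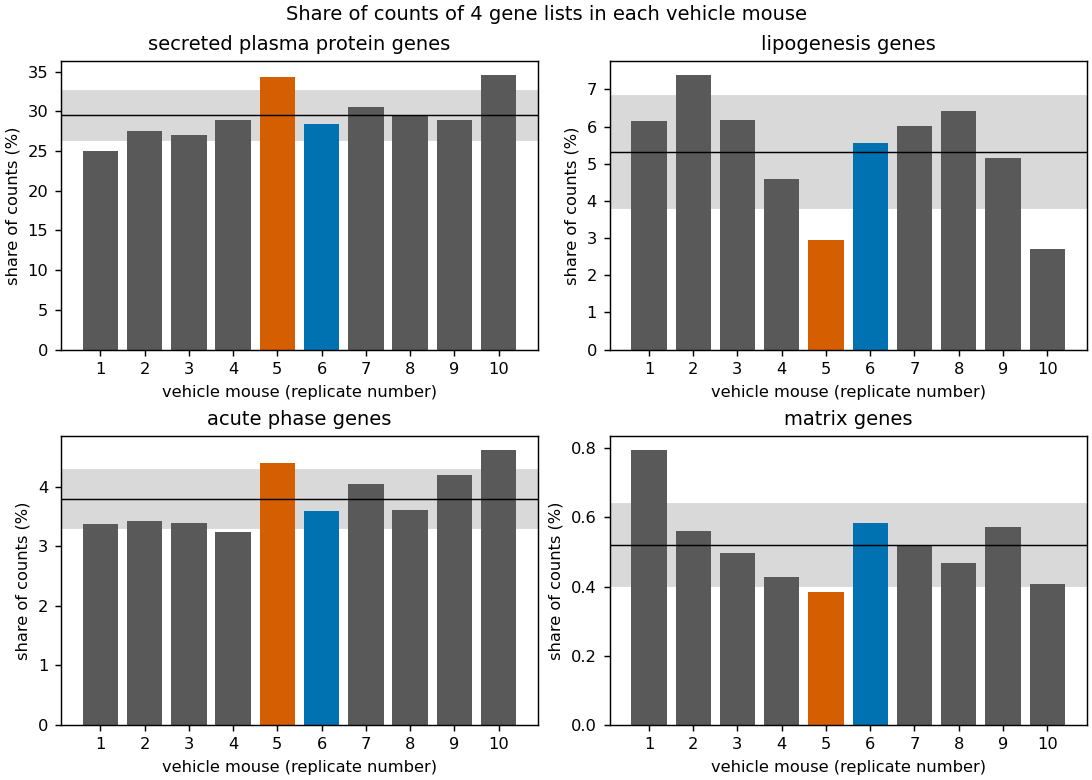
Bars give the share of all counts (percent, each axis from 0) taken by 4 gene lists in each of the 10 vehicle mice, with the line at the mean and the band at ± 1 SD. Replicate 5 (orange) and replicate 10 were highest for secreted plasma protein genes (34.3% and 34.6%) and lowest for lipogenesis genes (2.95% and 2.71%), and replicate 1 was highest for matrix genes (0.796%). Replicate 6, the shallow library, is blue.

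Other groups were smaller. The 22 acute phase genes took 3.79% ± 0.485 of counts, 18 fatty acid oxidation genes took 1.37% ± 0.133, and 23 matrix genes took 0.521% ± 0.119. Without replicates 5 and 6 these were 3.74%, 1.38%, and 0.530%. Cholesterol synthesis, with 24 genes, took 0.292% ± 0.0374, and 13 lipid droplet genes took 0.299% ± 0.0133, the steadiest of these shares. The 12 genes of lipid-associated macrophages, which gather around fat-laden hepatocytes, took 0.180% ± 0.0242 and the 11 genes of resident Kupffer cells 0.0887% ± 0.0107. *Spp1* (osteopontin) at 1016 ± 249 TPM was the most abundant macrophage list gene, although bile duct cells make it too. The most abundant matrix gene was *Fn1* (fibronectin) at 473 ± 148 TPM, a gene that hepatocytes also transcribe.

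Variation between vehicle mice was measured as the biological coefficient of variation (BCV), the spread of a gene between mice once counting noise is removed. The common BCV was 0.209 over all 10 mice, 0.194 without replicates 5 and 6, and 0.186 without replicates 1 and 10, against 0.204 in the OCA mice and 0.188 in the INT-787 mice. Genes were then ranked by how far their own dispersion exceeded that of genes of the same abundance, among 9454 genes with a mean of at least 5 CPM. Replicate 5 decided much of the head of that ranking. Of the top 100 genes, 38 overlapped an exon of a gene on the opposite strand (17.9% of all 9454 genes do), 45 were highest in replicate 5, and the 33 that met both conditions all left the top 100 without replicates 5 and 6. In total 60 of the 100 remained without these mice. In the drug groups, 56 of the 100 were among the 1000 most variable genes with OCA and 56 with INT-787, where 1000 genes are 10.6% of those ranked. With the top 100 taken without replicates 5 and 6, these numbers were 79 and 79.

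**Figure D2:**
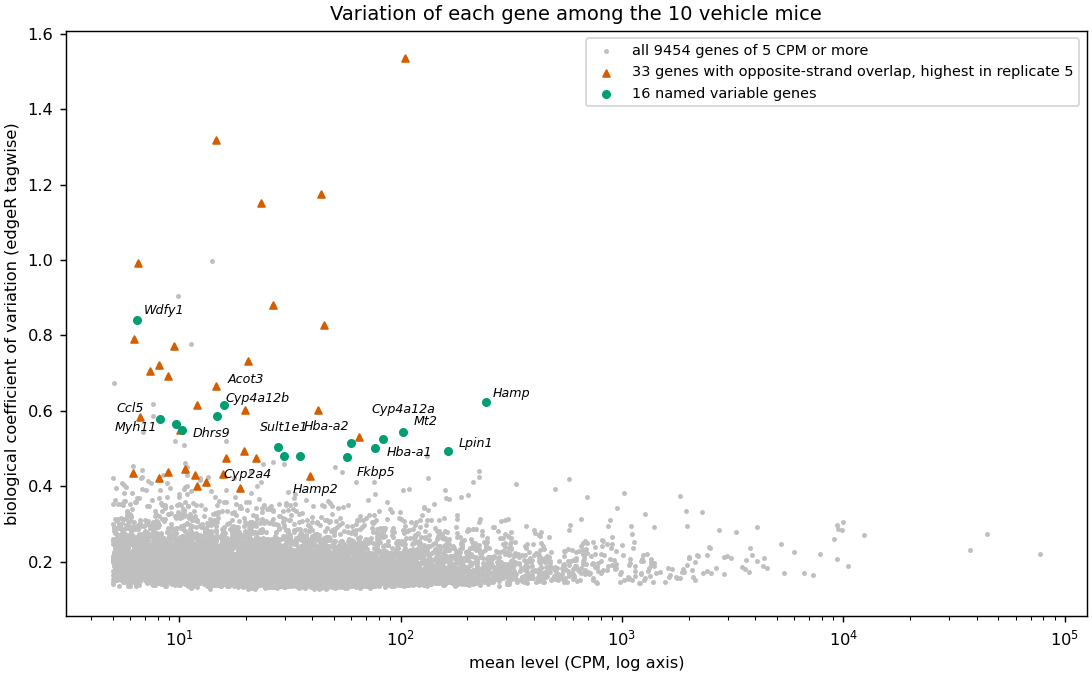
Each point is a gene with its mean level in the 10 vehicle mice (CPM, log axis) and its BCV. Orange triangles mark the 33 genes of the top 100 with opposite-strand overlap that were highest in replicate 5 and were lost without replicates 5 and 6, and green points mark the 16 named genes that stayed, between 0.48 and 0.84 on the BCV axis.

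The genes that varied most and stayed in the top 100 without replicates 5 and 6 numbered 20 by the rule, of which 4 were predicted or pseudogenes and 16 are named here. Of the 20, 19 were among the 1000 most variable genes in the OCA mice and all 20 in the INT-787 mice, the exception with OCA being *Wdfy1*.

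*Hamp*, the hormone hepcidin that blocks iron export, was 14.2 CPM in replicate 2, 130 to 241 CPM in 6 mice, and 448 to 472 CPM in replicates 5, 9, and 10. Its highest value was 33.2 times its lowest. *Hamp2*, a neighboring relative with which it shares 16.6% of its 50-base windows, was also lowest in replicate 2 (7.36 CPM) and highest in replicate 5 (82.4 CPM), and reads shared by both cannot be assigned with certainty.

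*Cyp4a12a* and *Cyp4a12b*, male-biased fatty acid hydroxylases, were high in replicates 8 and 10 (127 and 166 CPM for *Cyp4a12a*) and replicate 5 (165 CPM), and *Cyp4a12a* was lowest in replicate 3 at 15.3 CPM. They share 48.9% of windows, so their separate values are uncertain. *Cyp2a4*, a female-biased steroid hydroxylase, was lowest in replicates 5 and 8, with 9.13 CPM in replicate 5 and 8.96 CPM in replicate 8 against 14.4 to 60.4 CPM in the others. It shares 36.1% of windows with *Cyp2a5*. *Sult1e1*, which inactivates estrogens by sulfation, was 70.9 CPM in replicate 5 and 7.75 to 37.4 CPM elsewhere.

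*Mt2*, a metallothionein that binds zinc and is raised by stress hormones, was 369 CPM in replicate 9 and 49.96 to 116 CPM in the other 9 mice. Its neighbor *Mt1*, which shares 0% of windows with it, was also highest in replicate 9 (476 CPM against 93.1 to 328 CPM). *Fkbp5*, a target of the glucocorticoid receptor, was 136 CPM in replicate 4 and lowest in replicates 8 (17.5 CPM) and 5 (18.2 CPM). *Lpin1*, a phosphatidate phosphatase raised in fasting, had the same mice at its ends, with 311 CPM in replicate 4 and 48.9 and 50.9 CPM in replicates 5 and 8. *Acot3*, a peroxisomal thioesterase and target of PPARα, was 61.0 CPM in replicate 4 against 6.16 to 23.3 CPM in the others.

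Single mice stood alone in 3 further genes. *Wdfy1*, an endosomal adaptor protein, was 39.6 CPM in replicate 1 and 0.961 to 3.85 CPM in the other 9. *Myh11*, the smooth muscle myosin of vessel walls, was 29.7 CPM in replicate 10 against 3.35 to 14.6 CPM, and *Ccl5*, a T cell chemokine, was 25.6 CPM there against 2.43 to 12.1 CPM. Replicate 10 was also highest in *Acta2*, smooth muscle actin, with 48.1 CPM against 9.13 to 20.6 CPM, while *Tagln* of the same myofibroblast list was 35.4 CPM there and 31.9 CPM in replicate 7. *Hba-a1* and *Hba-a2*, the hemoglobin alpha genes, were high in replicates 2, 5, and 10 (128 to 165 CPM for *Hba-a1*, against 26.9 to 56.3 CPM) as the summed red cell share was. They share 67.5% and 86.9% of their 50-base windows, so their separate values are uncertain. *Dhrs9*, a retinol dehydrogenase, was 20.1 and 23.4 CPM in replicates 5 and 8 and 1.74 CPM in replicate 4, so its ends were the reverse of those of *Fkbp5*.

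**Figure D3:**
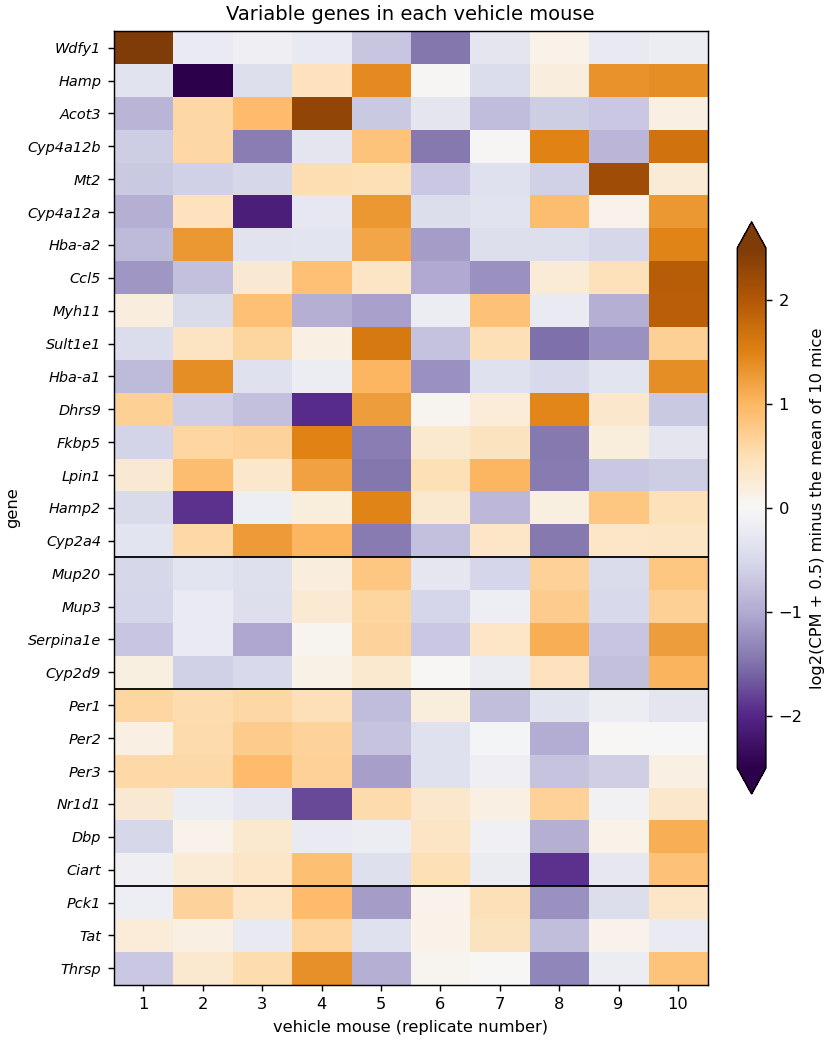
Color gives log2(CPM + 0.5) of each gene minus its mean over the 10 vehicle mice, for the 16 named variable genes (top block) and for male-biased, clock, and fasting genes (lower blocks). Replicates 5 and 8 were low in *Fkbp5*, *Lpin1*, *Cyp2a4*, and *Pck1* and high in *Mup20* and *Dhrs9*, and replicate 4 was high in *Acot3*, *Fkbp5*, and *Lpin1* and low in *Nr1d1*.

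Whole gene lists differed in how many members fell among the 946 most variable of the 9454 genes (10.0%). Both metallothioneins, 9 of 10 male-biased genes, 4 of 5 red cell genes, and 8 of 11 clock genes were among them. The hepatocyte, MHC class II, fasting and insulin, and female-biased lists had 50% of their members there, matrix genes had 11 of 23, acute phase genes 10 of 22, and secreted plasma protein genes 29 of 90. Without replicates 5 and 6 the counts of male-biased, red cell, clock, matrix, and acute phase genes were 9, 4, 9, 13, and 9, and without replicates 1 and 10 they were 8, 4, 8, 7, and 10. With the length and GC offset they were 9, 4, 8, 12, and 10. The offset moved the hepatocyte list from 4 to 2 of 8, fasting and insulin from 4 to 6 of 8, and female-biased from 2 to 3 of 4. MHC class II stayed at 2 of 4, and secreted plasma protein genes fell to 22 of 90. Cholesterol synthesis had 1 of 22 and lipid-associated macrophage genes 1 of 12, against 8 and 9 in the OCA mice and 10 and 6 in the INT-787 mice. Without replicates 1 and 10 the vehicle counts of these lists were 4 and 2, and with the offset 2 and 2. Acute phase genes had 4 of 22 with OCA and 5 of 22 with INT-787, and clock genes 1 of 11 and 8 of 11. No test of these counts between groups was made.

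Among male-biased genes, *Mup20*, a urinary pheromone carrier, was 2425 to 3762 CPM in replicates 4, 5, 8, and 10 and 1475 to 1759 CPM in the other 6 mice. *Mup3* split the mice the same way, and the 22 *Mup* genes together took 0.342% to 0.480% of counts in the 4 mice and 0.213% to 0.246% in the 6. Many *Mup* genes are nearly identical, but *Mup20* and *Mup3* shared only 1.48% and 1.18% of their 50-base windows. On average *Mup20* alone took 0.225% of counts against 0.314% for all 22, so the sum largely repeats it. *Serpina1e* was highest in replicates 10 (111 CPM) and 8 (99.8 CPM), and *Cyp2d9* in replicate 10 (584 CPM). The median correlation between pairs of the 10 members, r = 0.65 over the 10 mice, stood above that of all genes (r = 0.00) and was 0.68 without replicates 5 and 6.

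Clock genes are transcribed in daily waves of opposite phase. *Per1*, a repressor of the cycle, was 29.2 to 32.2 CPM in replicates 1 to 4 and 11.6 to 24.02 CPM in replicates 5 to 10. *Per3* was 7.79 to 10.3 CPM in replicates 1 to 4 and 2.08 to 5.61 CPM in the others. *Nr1d1*, the repressor REV-ERBα, was 33.9 CPM in replicate 4 and 95.9 to 188 CPM elsewhere. *Ciart* was 1.21 CPM in replicate 8 and 4.51 to 11.6 CPM elsewhere. Members varied a great deal, with a median pairwise r of 0.05. Genes of opposite phase lower that median, so it does not show whether the members were tied to each other.

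The fasting and insulin list had 4 of 8 members among the most variable genes but a median pairwise r of -0.00. *Pck1*, its most variable member and the gate of glucose synthesis, was 1786 CPM in replicate 4, 421 CPM in replicate 5, and 398 CPM in replicate 8. *Thrsp*, a regulator of lipogenesis, was 508 CPM in replicate 4, 101 CPM in replicate 5, and 78.6 CPM in replicate 8. *Cyp7a1*, which sets the pace of bile acid synthesis from cholesterol and was the most variable pericentral gene, was 118 CPM in replicate 8, 102 CPM in replicate 4, and 22.02 CPM in replicate 10.

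Scar matrix genes were highest in replicate 1. That mouse also had the highest share of lipid-associated macrophage (0.223%), Kupffer (0.111%), monocyte and neutrophil (0.0286%), and cholangiocyte genes (0.0991%), the lowest share of hepatocyte genes (8.10% against 9.58% to 14.97%), and the largest length slope. *Spp1* is in both the macrophage and the cholangiocyte list and alone took 0.0882% of counts in that mouse. By the mean log2 CPM over the genes of a list, which weights each gene equally, replicate 1 was not the highest for macrophage genes (6.44, against 6.65 in replicate 10) or for Kupffer genes (6.69, against 6.70 in replicate 3). With the levels offset for gene length and GC content, replicate 1 was highest for Kupffer genes (6.93, against 6.80 in replicate 3). Replicate 9 was then highest for macrophage genes (6.59, against 6.53 in replicate 1). The matrix level correlated with that slope at r = 0.50 (rho = 0.30, adjusted permutation p = 0.220, n = 10, r = 0.15 without replicates 10 and 1), and the part of these measures in the matrix values was not tested. *Col1a1*, the main fibrillar collagen chain, was 751 CPM in replicate 1, 562 CPM in replicate 10, and 522 CPM in replicate 6, and 280 to 457 CPM in the other 7. *Col3a1* was 807 CPM in replicate 1 and 297 to 532 CPM in the rest. *Fbn1*, the microfibril protein, was 57.9 CPM in replicate 1 but lowest in replicate 10 (11.8 CPM), unlike *Col1a1*. *Postn* (periostin), the most variable member, was 82.9 CPM in replicate 2 against 21.1 to 39.7 CPM in the others. Matrix members had a median pairwise r of 0.43, against 0.83 with OCA and 0.79 with INT-787.

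Macrophage genes varied less. *Gpnmb*, a marker of lipid-associated macrophages, was 175, 177, and 176 CPM in replicates 1, 6, and 9 and 102 to 153 CPM in the others. *Clec4f*, the defining Kupffer cell lectin, was 36.1 CPM in replicate 9 and 49.0 to 102 CPM in the others, and *Vsig4* was also lowest in replicate 9 (15.9 CPM against 25.2 to 45.0 CPM). The antigen presentation gene *H2-Aa* was 488, 376, and 449 CPM in replicates 5, 9, and 10 and 165 to 254 CPM in the others, and the 4 MHC class II genes moved together with a median pairwise r of 0.96.

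The acute phase list varied together in these mice, with a median pairwise r of 0.46 (0.47 without replicates 5 and 6, 0.35 after an offset for gene length and GC content), against 0.00 with OCA and 0.03 with INT-787. *Lcn2* (lipocalin 2, which withholds iron from bacteria), its most variable member, was 1450 CPM in replicate 10, 823 CPM in replicate 5, and 261 CPM in replicate 2. *Hp* (haptoglobin), its most abundant, was 16921 CPM in replicate 10, 14363 CPM in replicate 5, and 5756 to 10599 CPM in the others. *Itih3* varied least.

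*Saa1* and *Saa2* encode the serum amyloid A proteins of plasma and lie side by side on chromosome 7. *Saa1* was 144, 68.5, 122, 138, 139, 181, 189, 108, 126, and 285 CPM in replicates 1 to 10. *Saa2* was 132, 66.1, 107, 156, 183, 200, 230, 91.6, 160, and 325 CPM in the same order. Both were lowest in replicate 2 and highest in replicate 10. *Saa3*, made by macrophages as well, was 3.76 to 19.1 CPM with the same lowest and highest mouse.

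Their promoters are shown because these genes are the pair that moved together most closely in the tests below. Each line gives the 250 bases before the RefSeq start of the gene (GRCm38.p6), read 5′ to 3′ on the strand of the gene. Capitals mark matches to TTGCNNAA on either strand, a consensus of C/EBP factors that drive acute phase transcription. *Saa1* is at chr7:46742981-46743230 on the minus strand, *Saa2* at chr7:46751583-46751832 on the plus strand, and *Saa3* at chr7:46715677-46715926 on the minus strand.
Saa1: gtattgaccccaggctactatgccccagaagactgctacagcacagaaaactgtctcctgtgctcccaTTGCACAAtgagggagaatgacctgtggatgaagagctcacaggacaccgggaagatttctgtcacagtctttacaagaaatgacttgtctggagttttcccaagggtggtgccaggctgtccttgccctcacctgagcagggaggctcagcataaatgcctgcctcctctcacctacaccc
Saa2: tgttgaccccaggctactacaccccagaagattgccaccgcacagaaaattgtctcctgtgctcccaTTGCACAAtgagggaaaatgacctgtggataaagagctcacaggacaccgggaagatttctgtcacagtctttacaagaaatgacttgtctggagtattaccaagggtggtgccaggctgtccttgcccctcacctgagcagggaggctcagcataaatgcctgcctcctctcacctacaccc
Saa3: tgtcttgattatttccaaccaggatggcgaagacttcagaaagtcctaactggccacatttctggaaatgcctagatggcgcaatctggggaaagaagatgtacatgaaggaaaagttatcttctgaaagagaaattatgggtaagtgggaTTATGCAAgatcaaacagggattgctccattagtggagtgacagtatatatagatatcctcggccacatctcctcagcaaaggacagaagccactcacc
The match starts 182 bases before the *Saa1* start, 183 before that of *Saa2*, and 99 before that of *Saa3*. Aligned end to end, the *Saa1* and *Saa2* sequences were identical at 94.8% of positions and those of *Saa1* and *Saa3* at 52.2%. The letters occurred in 9.56% of 32851 promoters of this length, and in 10 of the 18 acute phase genes with a promoter in the table, against 10.8% of all genes. A match is a description of the sequence and not of binding.

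Which genes rise and fall with a chosen gene across the 10 vehicle mice was tested by fitting slopes in edgeR (quasi-likelihood), with p adjusted over 11226 genes by Benjamini-Hochberg and a call at an adjusted p of at most 0.05. A slope of 1 means that a gene doubles when the chosen gene doubles. With no true slope, a share of 0.05 of the genes tested would on average have an unadjusted p of 0.05 or less. With *Saa1*, 1 gene was called (0.00891% of those tested), and it was *Saa2* (slope 1.18, SE 0.138, adjusted p = 0.00376 by this edgeR test). The slope was 1.18 without replicates 5 and 6 (adjusted p = 0.00664) and 1.16 with the length and GC offset (adjusted p = 0.0451) by the same edgeR test. It rested on the extreme mice for its call, since the edgeR adjusted p was 0.183 without replicate 2 (slope 1.20) and 0.182 without replicate 10 (slope 1.24). Without replicates 5 and 6, 5 genes were called, *Saa2* and 4 that were chosen after their values were seen, *Lcn2*, *Saa3*, *Serpina12*, and *Crygn*, and DESeq2 called 39 in all 10 mice. In the drug groups edgeR called 0 genes with *Saa1* (0% each with OCA and with INT-787), with 521 and 643 genes at an unadjusted p of 0.05 or less, and 0 again with the offset (629 and 693 genes). These unadjusted numbers lie near a share of 0.05 of the 11555 and 11415 genes tested. *Saa1* and *Saa2* shared 13.2% and 9.12% of their 50-base windows, so a small part of the reads could belong to either. At an unadjusted p of 0.05 or less there were 1688 genes with *Saa1* (2035 without replicates 5 and 6), a number that depended on replicate 10, with 169 without it and 458 with the offset.

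The collagen gene *Col1a1* had 0 called genes (0%), 228 at an unadjusted p of 0.05 or less, and 4 by DESeq2. The 228 is fewer than a share of 0.05 of the 11226 genes tested. The unadjusted number was 1254 without replicate 1, 490 without replicate 10, 136 without replicate 4, and 384 with the offset. *Col1a2*, the second chain of the same collagen, had a slope of 0.78 (SE 0.124) and an edgeR adjusted p of 0.178. It was called without replicate 10 (edgeR adjusted p = 0.0422), with counts thinned to the smallest total (0.0161), and by DESeq2 (4.56e-09). It was 510 CPM in replicate 1, 365 CPM in replicate 10, and 357 CPM in replicate 6, the same leading mice as for *Col1a1*, and 232 to 348 CPM in the others. In the 9 OCA mice 441 genes followed *Col1a1* (3.82% of those tested there) and in the 9 INT-787 mice 726 (6.36%). With the length and GC offset these were 536 (4.64%) and 53 (0.464%), so the order of the drug groups turned. *Col1a2* was called in both, with edgeR adjusted p values of 0.000629 (slope 1.01) and 0.000151 (slope 0.86), and 0.000415 and 0.0105 with the offset. The difference between groups was not tested.

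*Gpnmb* for macrophages and *Fasn* for lipogenesis also had 0 called genes (0% each), with 493 and 1336 genes at an unadjusted p of 0.05 or less and 10 and 5 called by DESeq2. The 493 is below a share of 0.05 of the 11226 genes tested and the 1336 is above it. The unadjusted number for *Gpnmb* was 861 without replicate 2 and 316 without replicate 9. For *Fasn* it was 531 without replicate 5, 508 without replicates 5 and 6, 381 with the offset, and 2231 without replicate 4, where *Fasn* was lowest and 71 genes were then called. *Fasn* had 1 called gene with OCA (0.00865%) and 962 with INT-787 (8.43%), or 0 (0%, with 1305 genes at an unadjusted p of 0.05 or less) and 153 (1.34%) with the offset. *Cyp2e1*, the pericentral enzyme that oxidizes ethanol, ran from 4228 CPM in replicate 1 to 8900 CPM in replicate 4. It had 1 called gene (0.00891%), *Mcrip2* (slope 1.36, SE 0.192, edgeR adjusted p = 0.0347), which was 35.1 CPM in replicate 4, 34.6 CPM in replicate 10, and 12.8 to 25.7 CPM in the others. The slope was 1.38 without replicates 5 and 6 (edgeR adjusted p = 0.0941) and 1.22 with the length and GC offset (0.159), so the call was lost in both. It was also lost when replicate 1, 3, 5, 6, 7, 8, or 10 alone was left out (edgeR adjusted p from 0.0511 to 0.449), although the slope stayed between 1.24 and 1.44 over all such fits. Without replicate 4, 281 genes were called with *Cyp2e1*, and DESeq2 called 582 in all 10 mice. At an unadjusted p of 0.05 or less there were 2425 genes, 980 with the offset, and 800 without replicates 1 and 10. With OCA, 2 genes followed *Cyp2e1* (0.0173%), and with INT-787, 106 genes did (0.929%), or 8 (0.0692%) and 12 (0.105%) with the offset. On simulated counts with the depths of these mice, the share of planted genes with a slope of 1 that were recovered depended on the spread given to the genes. With the spread typical of their abundance it was 83% with *Col1a1*, 95% with *Saa1*, 48% with *Cyp2e1*, 37% with *Fasn*, and 27% with *Gpnmb*. With each gene's own spread it was 83%, 90%, 23%, 17%, and 22%. Each run planted 100 genes of slope size 1 and 100 of slope size 2, among well-counted genes only. All genes were drawn independently, without the trend on gene length. So many true slopes also make the adjustment milder than in the real data. These shares are therefore not the power of the tests on the real counts.

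For each mouse, 9 programs were summarized as the mean log2 CPM of their genes. Acute phase ran from 8.33 in replicate 2 to 9.20 in replicate 10 (SD 0.28) and matrix from 5.92 in replicate 4 to 6.78 in replicate 1 (SD 0.26), the widest ranges of the 9. Interferon genes ran from 2.96 in replicate 6 to 3.76 in replicate 10 (SD 0.25). Lipogenesis ran from 7.39 in replicate 5 to 8.09 in replicate 2 (SD 0.20). Lipid-associated macrophage genes (6.15 to 6.65), Kupffer genes (6.26 to 6.70), cholesterol synthesis (5.21 to 5.71), pericentral genes (6.57 to 7.10), and periportal genes (8.03 to 8.50) each spanned near a log2 range of 0.50. The acute phase level correlated with the length slope of the library (r = -0.86, rho = -0.83, adjusted permutation p = 0.0113 over 9 programs, n = 10, r = -0.74 without replicates 10 and 1), and its range shrank from 0.86 to 0.56 with the length and GC offset. For the interferon level r was -0.73 (adjusted permutation p = 0.0839, n = 10). The order of the ranges changed with the offset, where matrix (0.77) and Kupffer genes (0.66, against 0.44 without it) had the widest.

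**Figure D4:**
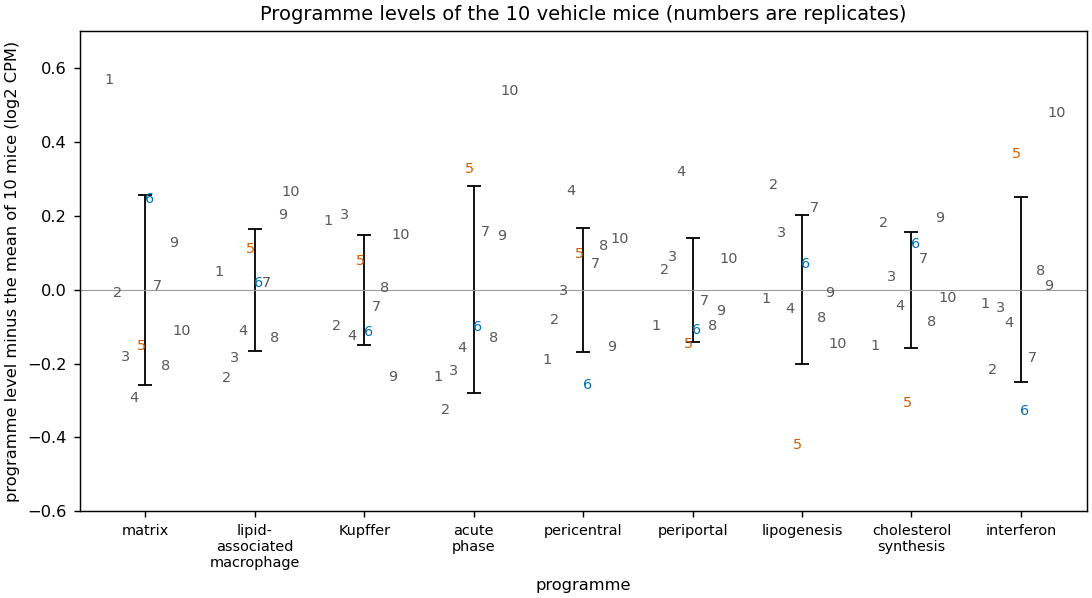
Each number is a vehicle mouse, placed at its program level minus the mean of the 10 mice (log2 CPM), with the bar at ± 1 SD. Replicate 1 stood highest in matrix genes, replicate 10 in acute phase and interferon genes, replicate 4 in pericentral and periportal genes, and replicate 5 (orange) lowest in lipogenesis and cholesterol synthesis. Replicate 6 is blue.

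Of the 36 pairs of programs, 2 correlated at an adjusted permutation p of 0.05 or less, 5 did so before adjustment, and none by Spearman's rho after adjustment. By r, no pair passed adjustment without replicates 5 and 6, and none when replicate 2, 3, 4, 5, 6, 8, or 10 alone was left out, while by rho 1 pair passed without replicate 3. Matrix and pericentral genes were opposed (r = -0.83, adjusted permutation p = 0.0400, rho = -0.84, adjusted p = 0.103, n = 10, r = -0.82 without replicates 1 and 6). Replicate 1 held the highest matrix level and replicate 4 the lowest matrix and highest pericentral level. The value was -0.81 without replicates 5 and 6 (adjusted exact permutation p = 0.142, n = 8) and -0.78 with the offset (adjusted permutation p = 0.150). With the median of log2 CPM over the genes as the level it was -0.23 (adjusted permutation p = 0.786), and with log2 of their summed CPM -0.81 (0.0542). In the OCA and INT-787 mice r was -0.67 and -0.79 (n = 9 each).

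Lipid-associated macrophage and acute phase genes went together (r = 0.84, adjusted permutation p = 0.0400, rho = 0.73, adjusted p = 0.180, n = 10), with replicates 2 and 10 at the ends of both and r = 0.68 without these mice. The value was 0.85 without replicates 5 and 6 (adjusted exact permutation p = 0.142, n = 8). It was 0.75 with the offset and 0.59 with log2 of the summed CPM (adjusted permutation p = 0.163 and 0.220). In the OCA and INT-787 mice it was -0.23 and 0.26 (n = 9 each). The macrophage level had r = -0.61 with the length slope (rho = -0.64, adjusted permutation p = 0.138 for r, n = 10, r = -0.64 without replicates 10 and 1), and the part of the slope in the correlation of the programs was not tested further.

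**Figure D5:**
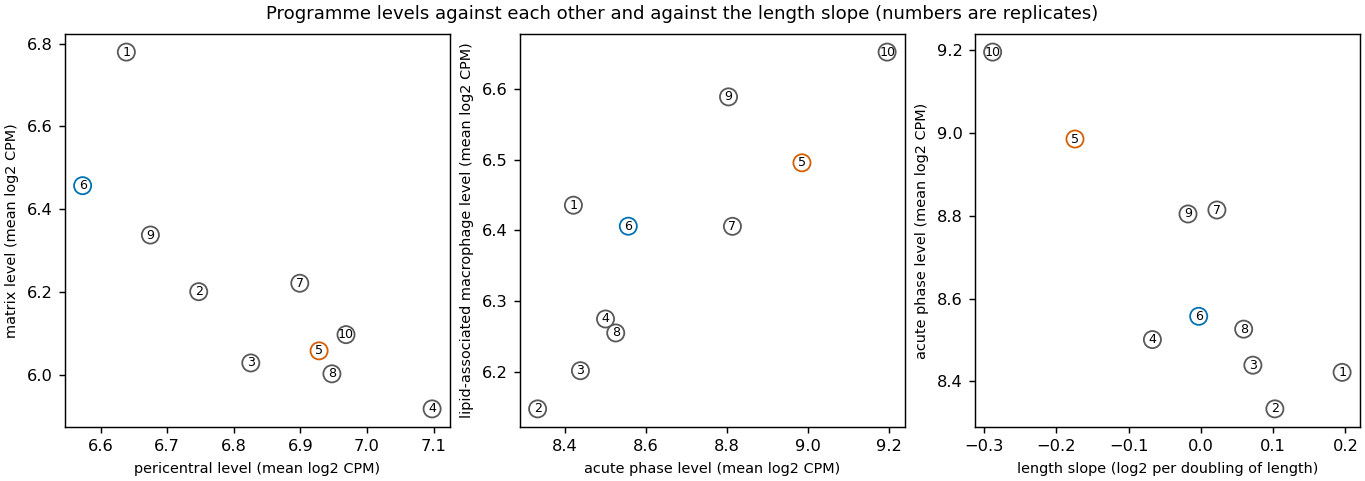
Levels (mean log2 CPM) of matrix against pericentral genes, of lipid-associated macrophage against acute phase genes, and of acute phase genes against the length slope of the library (log2 per doubling of length), with each number a vehicle mouse. The respective values of r were -0.83, 0.84, and -0.86, with replicate 10 at one end of the latter pair of panels.

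The next 3 pairs did not pass adjustment with all 10 mice and the mean log2 CPM. Lipogenesis and cholesterol synthesis passed without replicate 9 (r = 0.89, adjusted exact permutation p = 0.0324). Lipogenesis and interferon genes passed with log2 of the summed CPM (r = -0.86, adjusted permutation p = 0.0475). Lipogenesis and cholesterol synthesis, both driven by SREBP factors, had r = 0.80 (adjusted permutation p = 0.0631, rho = 0.73, n = 10, r = 0.45 without replicates 5 and 2, r = 0.61 without 5 and 6). Lipogenesis and interferon genes had r = -0.78 (adjusted permutation p = 0.0631, rho = -0.82, n = 10, r = -0.68 without replicates 5 and 2, r = -0.76 without 5 and 6). Acute phase and interferon genes had r = 0.76 (adjusted permutation p = 0.0809, rho = 0.52, n = 10), which came down to 0.07 without replicates 10 and 5 and was 0.75 without 5 and 6. The length and GC offset raised other pairs, picked here after their values were seen. Matrix and lipid-associated macrophage genes went from r = 0.28 to 0.70, and acute phase and periportal genes from -0.16 to -0.70 (adjusted permutation p = 0.163 for each with the offset).

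Whether vehicle mice differed more among themselves than treated mice was tested for each program and drug by an exact permutation test of the mean absolute deviation from the group median, two-sided. None of the 18 tests passed adjustment, and 3 had an unadjusted p of 0.05 or less. Acute phase genes spread more in vehicle mice (0.21 log2 units) than with OCA (0.05, exact p = 0.0188, adjusted 0.148) and with INT-787 (0.08, exact p = 0.0247, adjusted 0.148). The unadjusted exact p was 0.0519 and 0.0890 without replicate 5, 0.0322 and 0.0503 without replicates 5 and 6, and 0.0191 and 0.0553 with the length and GC offset. Pericentral genes spread less (0.13) than with INT-787 (0.28, exact p = 0.0167, adjusted 0.148). Vehicle mice were the wider group in 3 of the 18 tests.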

How the data were processed

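Liver RNA of 28 mice was made into stranded mRNA libraries and sequenced by the authors, and the reads were aligned with STAR to GRCm38 (mm10), per the labels. The authors deposited raw counts, whole numbers of reads per Ensembl gene with a column for each mouse and no normalization. The counting program and its use of strand are not given in the sources used here. The 10 vehicle mice were used, with the 9 OCA and 9 INT-787 mice as comparators. Labels give each animal its own sample, so n counts mice.

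Everything else was computed from these counts. Symbols, exon lengths, and coordinates came from GENCODE M21 (GRCm38), which matched 21858 of 21935 genes, and promoters from RefSeq. Genes were filtered with filterByExpr and scaled by TMM in edgeR 4.0.16 (R 4.3.3), and TPM used the union exon length. Variation was the tagwise over the trended dispersion of an intercept-only model. Covariation was edgeR's quasi-likelihood test of a slope on the log2 CPM (prior count 2) of a chosen gene, with Benjamini-Hochberg adjustment over all genes tested. Programs were compared by permutation tests (100000 resamples with 10 mice, exact with fewer) in scipy 1.17.1. DESeq2 1.42.0 and limma 3.58.1 (voom) were alternatives, as were other normalizations, filters, counts thinned to the smallest total, and leaving out mice. The slope test was checked on simulated data. Each mouse's total count sets its precision, so a gene at 5 CPM has near 5 counts in replicate 6.

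Genes named are the 20 highest by TPM, the 20 most variable at 5 CPM or more that stayed in the top 100 without replicates 5 and 6 (predicted genes counted only), the called genes of each chosen gene, the chosen genes, and in each list the members with extreme level or variation. A gene that this rule selects is not reported here and remains in all counts. *Adipoq* was named as a label check. *Col1a2*, *Col3a1*, *Fbn1*, *Cyp2a5*, *Cyp2d9*, *Dbp*, *Gpam*, *Mcrip2*, *Mup3*, *Nr1d1*, *Per1*, *Per2*, *Per3*, *Saa3*, *Serpina1e*, *Tat*, *Thrsp*, and *Vsig4* were described further after their values were seen. The members and the 32 lists were chosen with earlier results of these data known.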

Additional observations from a re-analysis of the deposited data

Results flagged for a closer look

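In 56 sets of 10 vehicle values (library measures, program levels, shares, and named genes), 12 had a highest or lowest mouse whose gap to its neighbor was large for the whole range. In values not chosen for their spread, chance gives about 1 in 20, a rate that does not apply here, since 7 of the 12 are genes named for being the most variable and the depth of replicate 6 and strand of replicate 5 were known beforehand. The gap as a share of the range was 0.479 for total counts (replicate 6 lowest) and 0.994 for the opposite-strand ratio (replicate 5 highest, 0.581 against 0.0142 for the next mouse). It was 0.925 for *Wdfy1* and 0.514 and 0.576 for the shares of matrix genes and of monocyte and neutrophil genes, with replicate 1 highest in each. For *Mt2* it was 0.794 (replicate 9 highest). Replicate 4 was highest for *Acot3* (0.687), *Fkbp5* (0.507), and the periportal level (0.496, at 8.50 against 8.27 for the next mouse). Replicate 10 was highest for *Ccl5* (0.585) and *Myh11* (0.573), and replicate 5 for *Sult1e1* (0.531).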

How the results depend on the processing

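The number of genes called with a chosen gene depended on the setting. Without replicates 5 and 6 it was 5 with *Saa1* and 0 with *Cyp2e1*. DESeq2 called 4 genes with *Col1a1*, 10 with *Gpnmb*, 39 with *Saa1*, 582 with *Cyp2e1*, and 5 with *Fasn*. Counts thinned to the smallest total gave 1 with *Col1a1*, 0 with *Cyp2e1*, and 12 with *Fasn*, and no filter gave 0 with *Cyp2e1* and 138 with *Fasn*. An adjusted p of at most 0.01 left 0 with *Cyp2e1*. Alternatives chosen after seeing the data were an offset for gene length and GC content (0 with *Cyp2e1*), the same without replicates 5 and 6 (0 with *Saa1*, 2 with *Cyp2e1*), and leaving out replicates 1 and 10 (0 with *Saa1*, 0 with *Cyp2e1*). Leaving out each mouse in turn gave 0 to 3 genes with *Col1a1* (3 without replicate 10), 0 to 0 with *Gpnmb*, 0 to 5 with *Saa1* (0 without replicate 2 or 10, 5 without replicate 5), 0 to 281 with *Cyp2e1*, and 0 to 71 with *Fasn* (the highest of both without replicate 4).

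The 2 correlated pairs of programs became 0 without replicates 5 and 6, with upper-quartile normalization, with thinned counts, with the offset, with the offset without replicates 5 and 6, and without replicates 1 and 10, and 0 to 3 when each mouse was left out. Of the 100 most variable genes 60 remained without replicates 5 and 6, and 62 to 96 when each mouse was left out (62 without replicate 5). Per length the secreted share was 40.5% and the lipogenic share 3.04%. The slopes of *Col1a2*, *Saa2*, and *Mcrip2* and the 5 program correlations recomputed under each alternative kept their sign in the vehicle mice, and the cause of these differences was not tested. No paired analysis was possible because the results come from the vehicle group alone or compare its spread with a drug group, and mice of different groups are different animals.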
